A study of Rattus norvegicus with 83 samples.

Results

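The comparison set 23 libraries labelled pup day 16 (PD16) against 12 libraries labelled gestational day 21 (GD21), all from offspring of Sprague-Dawley rats whose dams received amitrole, and it took in 35 of the 83 samples of the series. Members were taken by the stage and treatment in their labels, and dose was a block in the fit. The PD16 libraries numbered 11 at 25 mg/kg body weight per day and 12 at 50 mg/kg body weight per day, and the GD21 libraries numbered 6 at each dose. Dams were dosed once daily by oral gavage from gestational day 7, up to pup day 22 in the labels' protocol and up to pup day 16 in the series design, with birth expected on gestational day 23. No untreated animal entered this comparison, so every value in it is a value under amitrole. The vehicle libraries (corn oil, 10 at PD16 and 6 at GD21) and the methimazole libraries (8 or 16 mg/kg body weight per day, 20 at PD16 and 12 at GD21) are used only where the stage difference under amitrole is set beside theirs. Litters and animals are not named in the labels, and the p-values therefore speak only for the spread among libraries, some of which may come from 1 dam.

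Amitrole is a triazole herbicide that blocks thyroid peroxidase, the enzyme that puts iodine onto thyroglobulin, and it also inactivates catalase, which breaks down hydrogen peroxide. Thyroid hormone acts through nuclear receptors that switch target genes on or off and is needed for the maturation of many tissues around birth. The adrenal cortex makes steroids from cholesterol under the control of the pituitary hormone ACTH, and the medulla makes adrenaline from tyrosine. The fetal adrenal of the rat is a fast-growing organ, and after birth its growth slows while its zones take shape.

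Several labels met values that went against them, and these stand before the results. The tissue label is testis, but 15 of 16 listed testis genes (all except Inha, which the adrenal also expresses; Amh, Insl3, Ddx4 and Dmrt1 among them) gave at most 28.3 CPM for any 1 gene in any of the 35 libraries, whereas Cyp21a1, the 21-hydroxylase of the adrenal cortex, ran from 1148 to 13180 CPM in PD16 libraries and from 6585 to 10000 CPM in GD21 libraries. CPM is a count as a part per 1e+06 of the total count of its library. Embryonic globins, which are made by the first red cells of the embryo, took 0.0473 to 0.368% of globin counts in PD16 amitrole libraries and 0.0716 to 0.878% in GD21 amitrole libraries, but 11.6 to 19.4% in PD16 vehicle and 8.79 to 23.0% in PD16 methimazole libraries. Across 5408 genes, all 23 PD16 amitrole libraries correlated more closely with the mean of GD21 vehicle (r from 0.864 to 0.945) than with the mean of PD16 vehicle (r from 0.843 to 0.882). These correlations are across genes of 1 library each and share its depth. The Y-linked gene Eif2s3y was under 10 CPM in 8 of the 12 PD16 libraries at 50 mg/kg per day and in no other of the 35, and Alb, the albumin gene of liver, reached 200 CPM in 4 PD16 and 3 GD21 libraries. What these values say about the animals behind the labels was not tested, and PD16 and GD21 below mean the labelled stages. Total counts ran from 263933 to 937813 (median 460697) at PD16 and from 495369 to 1214081 (median 828036.5) at GD21.

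The differences between the stages were lopsided. A set of 132 genes was lower at PD16 by 4-fold or more, while most rises were under 2-fold. edgeR's quasi-likelihood test on raw counts, with Benjamini-Hochberg adjustment over 5408 genes, called 461 genes higher at PD16 (8.52% of those tested) and 544 lower (10.1%) at an adjusted p under 0.05. Only 5 of the higher genes differed by 2-fold or more, against 279 of the lower ones, of which 132 passed 4-fold and 27 passed 8-fold. The median log2 fold change was 0.52 among the called rises, -1.03 among the called falls and 0.03 over all genes tested. No gene had every PD16 library above every GD21 library (0%), and 140 genes (2.59%) had every PD16 library below every GD21 library. Scaling to library totals, as in the CPM values below, moved the median log2 ratio of all genes to 0.16, against 0.03 for the fitted fold changes, so CPM ratios lie somewhat above fitted ones. A gene expressed in fewer cells cannot be told apart in bulk RNA from a gene expressed less per cell.

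The count of rises moved more than the count of falls when libraries were left out. With 25 mg/kg per day alone 273 genes were higher and 393 lower, and with 50 mg/kg per day alone 35 were higher and 323 lower. Leaving out the 8 PD16 libraries with low Eif2s3y gave 203 higher and 438 lower, and leaving out the 7 libraries with high Alb gave 285 and 457. Library numbers in the titles were split at 57, a cut that the labels do not give, and both parts hold both stages. Within numbers under 57 there were 140 rises and 441 falls, within 57 and above 309 rises and 594 falls. Under 57 every PD16 number comes before every GD21 number, so stage and number order cannot be told apart there. Where library number is a covariate below, it is the side of this cut. Thinning all 35 libraries to the lowest total left 270 rises and 348 falls. The stage difference was of the same sign at both doses for 886 of the 887 called genes that could be tested at each.

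Tob1, Jund and Ythdf2 were among the 12 largest falls that the naming rule admitted. Tob1, an antiproliferative adaptor of the deadenylation machinery, had 13.9, 36.3 and 54.9 CPM (lowest, median, highest) at PD16, against 228, 339 and 444 CPM at GD21. Jund, a member of the AP-1 family of transcription factors, had 34.6, 54.6 and 114 CPM at PD16, against 320, 540 and 1186 CPM at GD21. Ythdf2, which binds methylated adenosines and marks messenger RNA for decay, had 43.4, 66.2 and 108 CPM at PD16, against 400, 581 and 996 CPM at GD21. In these 3 genes, picked from the largest falls, every PD16 library lay below every GD21 library, where 2.59% of all genes tested did so. Their log2 fold changes were -3.37 ± 0.13 for Tob1, -3.43 ± 0.17 for Jund and -3.33 ± 0.12 for Ythdf2 (SE), with edgeR adjusted p-values of 7.43e-25, 2.47e-19 and 9.41e-25.

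Kcnd2, a voltage-gated potassium channel subunit, showed the largest fall among the genes the naming rule admitted. Its CPM was 2.72, 17.6 and 29.8 at PD16, against 87.1, 189 and 287 at GD21, a log2 fold change of -3.81 ± 0.19. The other 8 of the 12 largest falls were Ggact, Med26 (a Mediator subunit), Vkorc1l1 (a vitamin K epoxide reductase), Naa50 (an N-terminal acetyltransferase), Tmem268, Tsc22d2, Qrich1 and Ccn1 (a matricellular protein), with log2 fold changes from -3.41 to -3.19. In each of these 12 genes every PD16 library lay below every GD21 library, where 2.59% of all genes tested did so. Choosing the largest falls favours such separation. Naa50, the most abundant of them, had 58.9, 106 and 170 CPM at PD16, against 457, 907 and 1246 CPM at GD21.

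**Figure D1:**
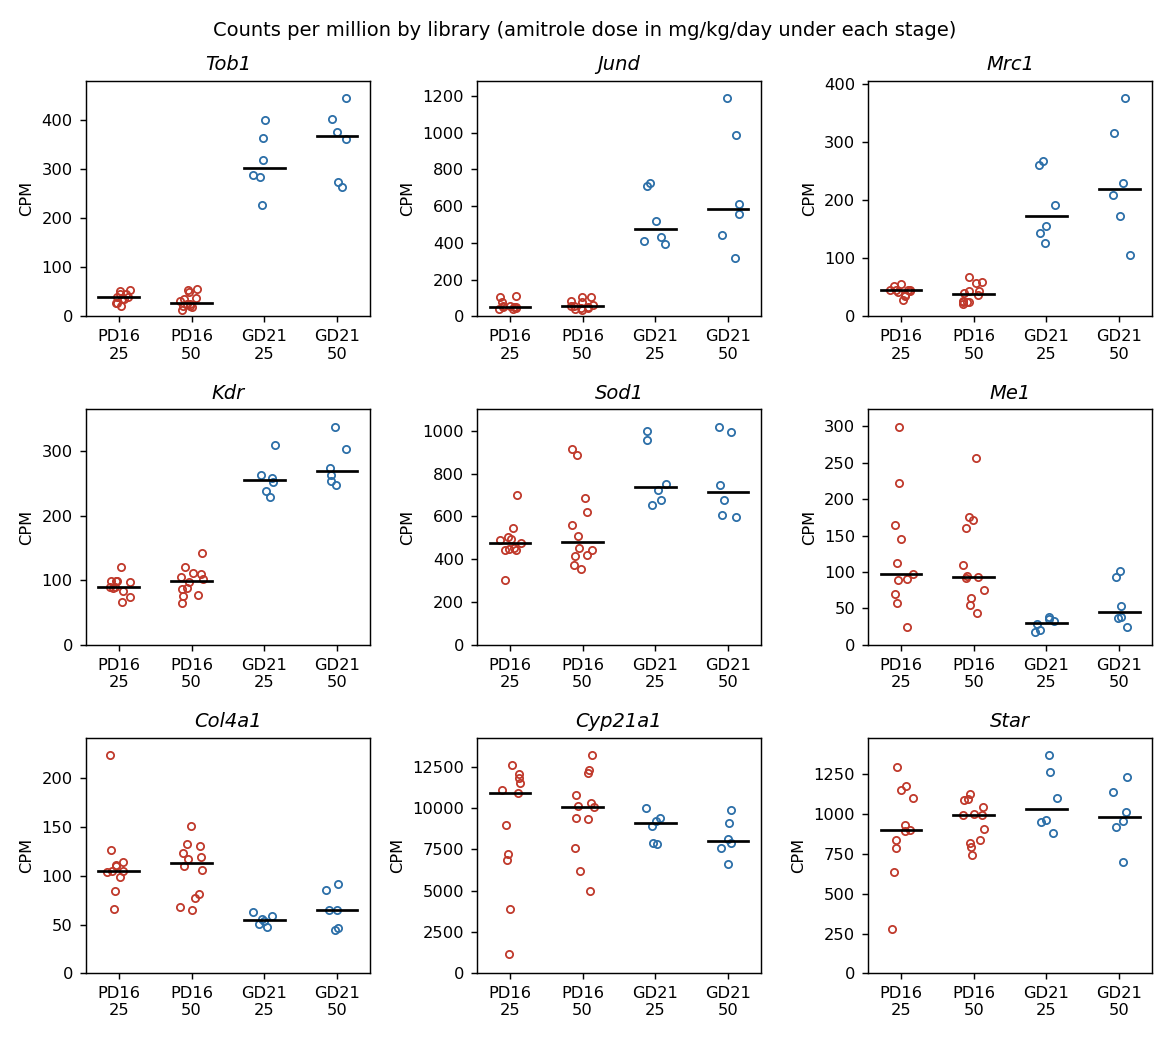
CPM of 9 genes in each amitrole library (circles), with PD16 left and GD21 right, by dose in mg/kg per day on the horizontal axis, and a bar at the median of each group. Tob1, Jund, Mrc1 and Kdr do not overlap between the stages, Sod1, Me1 and Col4a1 differ with overlap, and Cyp21a1 and Star overlap broadly, with PD16 replicate 79 at 25 mg/kg per day lowest in both (1148 and 280 CPM).

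The 132 genes were defined by their own fall, so their share of each library is a description. Together they took 0.425 to 0.930% of counts in the 23 PD16 amitrole libraries (median 0.603%) and 2.35 to 4.62% in the 12 GD21 amitrole libraries (median 3.23%). Both doses gave the same picture, with medians of 0.612% at 25 and 0.566% at 50 mg/kg per day at PD16, against 3.09% and 3.47% at GD21. Their GD21 means had a median of 149 CPM, and those of all genes tested 36.7 CPM, a gap that the choice of genes high at GD21 favours. In 102 of the 132 every PD16 library lay below every GD21 library, where 2.59% of all genes tested did so, which the choice of large falls also favours. Just inside the 4-fold limit lay F2r, Dnajb9 and RGD1305713 (log2 fold changes down to -2.01), and just outside it Plagl1, Aif1l and Cflar (-1.98 to -1.97).

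Set beside the other treatments, the same 132 genes were low in the PD16 libraries of amitrole and methimazole and not in those of vehicle. These PD16 groups differed in the embryonic share of globin counts. It was 8.79 to 23.0% in methimazole and 11.6 to 19.4% in vehicle, against 0.0473 to 0.368% in amitrole. The part of that difference in the comparisons here was not tested. The 132 genes took 0.771 to 1.76% of counts in PD16 methimazole libraries at 8 mg/kg per day and 0.399 to 0.999% at 16 mg/kg per day. In GD21 methimazole libraries of both doses they took 1.92 to 3.80%. In vehicle their share was 3.35 to 5.52% at PD16, against 1.97 to 2.87% at GD21. In a fit of all 10 groups edgeR called 130 of the 132 lower at PD16 in methimazole (31.7% of 6287 genes were called lower there and 28.9% higher). In vehicle it called 81 of them higher and 8 lower (22.8% of all genes were called higher and 21.2% lower). Median log2 fold changes over the 132 in that fit were -1.66 in methimazole and 0.71 in vehicle. The median in amitrole was -2.63 in the fit of the amitrole libraries alone, which chose these genes. The libraries compared differ between the 3 treatments.

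**Figure D2:**
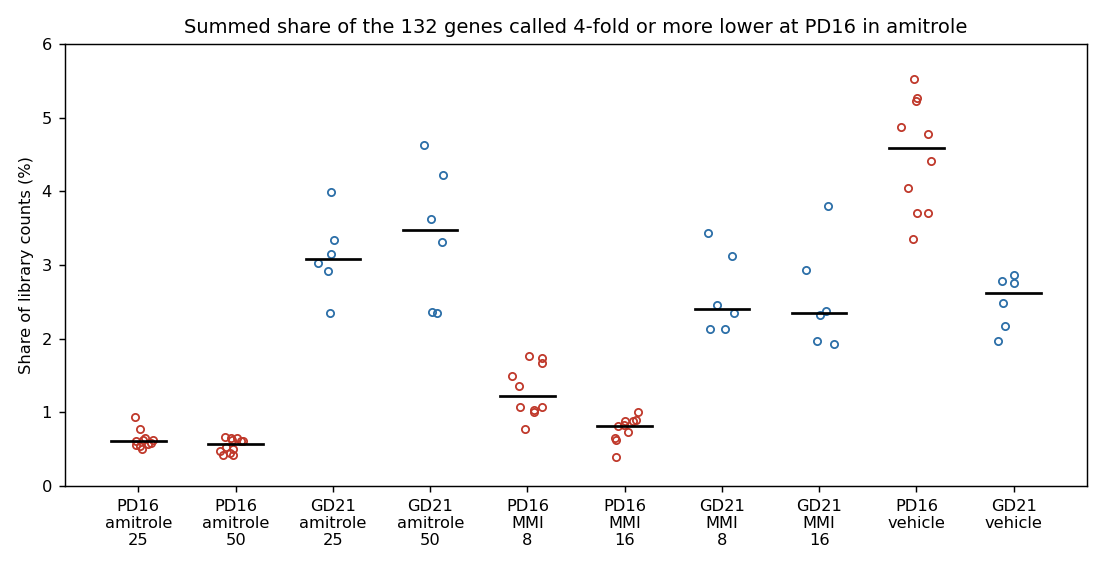
Share of each library's counts (%, vertical axis) taken by the 132 genes called 4-fold or more lower at PD16 under amitrole, for each library (circle) of the 10 groups, red for PD16 and blue for GD21, with a bar at each median. PD16 amitrole libraries lie between 0.425 and 0.930%, below all GD21 libraries, while PD16 vehicle libraries lie between 3.35 and 5.52%.

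Jund and Ythdf2 were higher at PD16 in vehicle and lower under both amitrole and methimazole. The difference in embryonic globin share among these PD16 groups holds here too. Jund had a log2 fold change of 0.76 in vehicle (adjusted p = 0.00686) and -2.24 in methimazole (adjusted p = 6.87e-19), and the difference of amitrole from vehicle was -4.19 (adjusted p = 3.45e-19). Ythdf2 rose by 1.15 in vehicle and fell by 1.86 in methimazole. Tob1 was at -0.14 in vehicle (adjusted p = 0.615) and at -2.82 in methimazole, and its amitrole stage difference did not pass the test against methimazole (-0.55, adjusted p = 0.0638).

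The promoters of these 3 genes and of Me1, the largest rise that the naming rule admitted, are shown as examples of opposite movements. Each line is the RefSeq GRCr8 sequence from 250 bases before to 50 bases after the start, 5′ to 3′ on the gene's strand. Capitals mark matches, searched on both strands, to 6 motifs: the TATA box spelled TATAAA, the box spelled CCAAT, the GC box spelled GGGCGG, the E box spelled CACGTG, the cyclic AMP element spelled TGACGTCA and the antioxidant element spelled TGACNNNGC. Matches of 2 motifs could overlap.
Jund promoter, GRCr8 chr16:18769722-18770021, minus strand: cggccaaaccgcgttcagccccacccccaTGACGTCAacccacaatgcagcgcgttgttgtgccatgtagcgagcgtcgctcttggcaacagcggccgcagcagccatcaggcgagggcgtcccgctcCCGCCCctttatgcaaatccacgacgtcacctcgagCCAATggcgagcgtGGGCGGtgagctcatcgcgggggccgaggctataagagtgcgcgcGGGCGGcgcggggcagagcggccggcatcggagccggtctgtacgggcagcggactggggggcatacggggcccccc
Tob1 promoter, GRCr8 chr10:79659743-79660042, plus strand: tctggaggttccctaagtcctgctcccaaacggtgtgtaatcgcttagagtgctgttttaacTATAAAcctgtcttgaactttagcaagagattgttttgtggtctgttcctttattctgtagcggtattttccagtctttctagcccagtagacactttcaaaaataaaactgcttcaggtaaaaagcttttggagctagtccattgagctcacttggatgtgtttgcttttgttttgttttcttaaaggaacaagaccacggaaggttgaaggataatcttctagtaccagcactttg
Ythdf2 promoter, GRCr8 chr5:149690009-149690308, minus strand: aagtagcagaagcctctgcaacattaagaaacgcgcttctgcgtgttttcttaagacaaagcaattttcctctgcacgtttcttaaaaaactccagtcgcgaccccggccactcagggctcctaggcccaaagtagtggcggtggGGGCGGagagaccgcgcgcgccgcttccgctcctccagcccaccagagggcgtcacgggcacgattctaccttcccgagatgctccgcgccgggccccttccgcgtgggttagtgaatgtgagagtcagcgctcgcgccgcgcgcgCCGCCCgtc
Me1 promoter, GRCr8 chr8:96540195-96540494, minus strand: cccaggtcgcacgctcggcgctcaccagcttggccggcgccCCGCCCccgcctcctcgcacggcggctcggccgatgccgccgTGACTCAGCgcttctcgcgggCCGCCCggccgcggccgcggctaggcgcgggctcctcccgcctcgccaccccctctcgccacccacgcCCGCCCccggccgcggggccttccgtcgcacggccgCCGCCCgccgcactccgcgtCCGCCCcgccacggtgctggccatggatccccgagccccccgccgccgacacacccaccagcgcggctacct
A GC box was found in 70.8% of the 106 promoters matched to the 132 genes, in 66.8% of 373 matched to the called rises, in 64.6% of 4453 matched to all genes tested and in 34.9% of all 27457 promoters. For the antioxidant element the shares were 18.9%, 16.1%, 15.4% and 12.2%, for the CCAAT box 48.1%, 37.3%, 40.0% and 37.7%, and for the TATA box 5.66%, 3.49%, 7.30% and 14.3%. The E box was in 2.83% of the promoters of the 132 genes, 10.2% of those of the rises, 10.1% of those of all genes tested and 6.65% of all promoters. The cyclic AMP element, which Jund holds, was in 5.66%, 3.75%, 3.39% and 1.91% of the same 4 sets. These matches describe letters in 300 bases and were not tested.

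The rises were small and overlapping. Me1, the cytosolic malic enzyme that thyroid hormone raises in rat liver, had 24.0, 94.5 and 299 CPM at PD16, against 18.3, 36.1 and 102 CPM at GD21. It lay above the highest GD21 library in 10 of 23 PD16 libraries, and its log2 fold change was 1.34 ± 0.30 (adjusted p = 0.00117). The change was 1.96 at 25 mg/kg per day (adjusted p = 0.00502) and 0.86 at 50 mg/kg per day (adjusted p = 0.209), and the difference between the doses did not pass the test. In vehicle Me1 stood at -0.78 (adjusted p = 0.067) and in methimazole at -0.03, and the amitrole stage difference exceeded the one in vehicle by 2.19 (adjusted p = 3.18e-05). What part the differing embryonic globin share of these PD16 groups had in this contrast was not tested.

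Ptpra, a receptor-type tyrosine phosphatase, was the next by size among the rises the naming rule admitted. It had 19.4, 34.3 and 75.8 CPM at PD16, against 7.33, 14.6 and 26.3 CPM at GD21, a log2 fold change of 1.05 ± 0.17. Fat1 (an atypical cadherin), Agrn (agrin of the basement membrane), Jup (plakoglobin of cell junctions), Pxdn (peroxidasin, which crosslinks type IV collagen) and Nckap1 (of the actin-regulating WAVE complex) rose by 0.94, 0.91, 0.89, 0.87 and 0.86. Of similar size were the rises of Tep1 (0.97), Ttyh3 (0.94), Prkar2b (a regulatory subunit of protein kinase A, 0.92), Dpp8 (0.89) and Gclc (0.86), which completed the 12. All 12 overlapped between the stages. With 50 mg/kg per day alone Me1, Prkar2b, Agrn, Jup, Pxdn, Nckap1 and Gclc kept their direction and did not pass the test.

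The 1 rise past 4-fold was that of the locus LOC100911498, which the naming rule passed over and which is given here after its values were seen. It had 0, 1.71 and 126 CPM at PD16, against 0, 0 and 1.26 CPM at GD21 (adjusted p = 1.95e-05), with a count in 3 of the 12 GD21 libraries, too few for a fold change. It exceeded 20 CPM in all 8 PD16 libraries in which Eif2s3y was under 10 CPM and in 0 of the other 15.

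Steroid synthesis genes gave 1 call. Of 25 genes on that list 18 could be tested, with a median log2 fold change of -0.09. Of these 1 fell and 0 rose, where 10.1% of all genes tested fell and 8.52% rose. Star, which brings cholesterol into the mitochondrion, had 280, 930 and 1298 CPM at PD16, against 699, 987 and 1368 CPM at GD21 (-0.29 ± 0.13, adjusted p = 0.112). Cyp11a1, which makes pregnenolone, had 9317, 20320 and 27340 CPM at PD16, against 12070, 15810 and 20970 CPM at GD21 (0.19 ± 0.12, adjusted p = 0.267). Cyp21a1 stood at 0.00 ± 0.20, Cyp11b1 (11-hydroxylase) at 0.55 ± 0.27, Cyp11b2 (aldosterone synthase) at -0.30 ± 0.76 and Akr1b7 at 0.05 ± 0.13, and none of the 4 passed the test.

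The member that fell was Mc2r, the ACTH receptor, with 5.00, 15.1 and 36.5 CPM at PD16, against 12.4, 24.9 and 53.6 CPM at GD21. Its log2 fold change was -0.64 ± 0.20 (adjusted p = 0.0184), the libraries overlapped, and without GD21 replicate 55 at 50 mg/kg per day the adjusted p was 0.0942. In the 10-group fit 13 of 19 steroid genes fell in vehicle (21.2% of all genes did) and 14 in methimazole (31.7%), and 11 had a higher stage difference in amitrole than in vehicle (18%). Cyp21a1 is an example, at -1.80 in vehicle, and its stage difference under amitrole was higher by 1.81 (adjusted p = 2.03e-08). Embryonic globins took 11.6 to 19.4% of globin counts in PD16 vehicle and 8.79 to 23.0% in PD16 methimazole libraries. Their share was 0.0473 to 0.368% in PD16 amitrole libraries, and the part of that difference in these comparisons was not tested.

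Of 11 testable genes of catecholamine synthesis and chromaffin granules, which mark the medulla, edgeR and DESeq2 each called 0 and 2 had an unadjusted p under 0.05, with a median of -0.10. Over all genes tested edgeR called 10.1% lower and 8.52% higher. Pnmt, which turns noradrenaline into adrenaline, had 431, 698 and 995 CPM at PD16, against 547, 740 and 824 CPM at GD21 (-0.17 ± 0.08, adjusted p = 0.127). Th, the first enzyme of the pathway, had 71.0, 145 and 397 CPM at PD16, against 77.4, 138 and 188 CPM at GD21, and Dbh had 68.5, 153 and 430 CPM at PD16, against 102, 133 and 224 CPM at GD21. Their log2 fold changes were 0.00 ± 0.16 and 0.08 ± 0.15.

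As shares of the library, 6 cortex markers took 4.41 ± 1.19% of counts at PD16 (SD, n = 23) and 3.54 ± 0.53% at GD21 (n = 12), a difference of 0.87 percentage points that did not pass after adjustment over 24 tests (two-sided permutation p = 0.0214, adjusted 0.171). The 6 medulla markers took 0.123 ± 0.0254% at PD16 and 0.120 ± 0.0149% at GD21 (permutation p = 0.738, adjusted 0.805). None of the 24 tests on summed shares, 8 sums over both doses and within each, passed adjustment, and the lowest adjusted p was 0.144 (permutation).

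Among 19 testable genes of cholesterol synthesis and uptake 1 fell and 0 rose (median -0.11), where 10.1% of all genes tested fell and 8.52% rose. The gene that fell was Srebf2, the transcription factor that drives the pathway, with 14.5, 30.2 and 49.0 CPM at PD16, against 80.8, 113 and 161 CPM at GD21 and no overlap (-2.08 ± 0.12). Among the enzymes it is known to control, Sqle stood at 0.01 and Hmgcs1 at -0.26, and neither was called. Under vehicle 16 of 21 genes of this list rose, where 22.8% of all genes did, with a median of 1.10. Here too the part of the high embryonic globin share of PD16 vehicle libraries was not tested.

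Thyroid hormone genes were mostly too low to test, with 4 of 21 past the filter, of which 2 rose and 1 fell. Over all genes tested 8.52% rose and 10.1% fell. Besides Me1, the corepressor Ncor1 rose by 0.36 ± 0.13 (adjusted p = 0.0475), a call lost in 15 of 35 fits that each left out 1 library (adjusted p up to 0.107). Cpt1a, which admits fatty acids to mitochondria and is raised by thyroid hormone in rat liver, fell. It had 59.4, 123 and 193 CPM at PD16, against 307, 561 and 1050 CPM at GD21, with no overlap (-2.39 ± 0.15). The receptor gene Thra had a median of 6.85 CPM at PD16 and 5.37 CPM at GD21, Klf9, a direct target, 7.53 and 6.85 CPM in the same order of stages, and Thrb a median of 0 CPM at both.

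Catalase, the enzyme that amitrole inactivates, had 114, 185 and 228 CPM for its gene Cat at PD16, against 111, 147 and 184 CPM at GD21. It was above the highest GD21 library in 12 of 23 PD16 libraries, but the log2 fold change of 0.17 ± 0.08 did not pass the test (adjusted p = 0.108). Of 24 testable genes of peroxide handling and Nrf2 targets 6 fell and 1 rose, where 10.1% of all genes tested fell and 8.52% rose. The list's median was -0.11. Gsr, glutathione reductase, fell most, with 1.21, 6.34 and 17.6 CPM at PD16, against 27.1, 39.0 and 60.1 CPM at GD21 and no overlap (-2.58 ± 0.19).

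The superoxide dismutase Sod1 had 302, 477 and 913 CPM at PD16, against 596, 735 and 1018 CPM at GD21, and 18 of 23 PD16 libraries lay below the lowest GD21 library (-0.71 ± 0.14). Sod2, Gpx1, Gpx4 and Prdx5, which clear superoxide and peroxides, fell by 0.43, 0.34, 0.52 and 0.53. Gclc, the catalytic subunit that limits glutathione synthesis, rose, with 11.5, 28.9 and 58.5 CPM at PD16, against 3.10, 13.0 and 30.3 CPM at GD21 (0.86 ± 0.23, adjusted p = 0.00433). Without the 8 libraries with low Eif2s3y, 2 genes of this list fell and 1 rose.

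Leukocyte genes gave falls and no rise. Of 15 testable genes 10 fell and 0 rose, where 10.1% of all genes tested fell and 8.52% rose. The list's median was -0.63 against 0.03 over all genes tested, and C1qa, Csf1r, Cd14, Cd74 and Coro1a were not called. Mrc1, the mannose receptor of tissue macrophages, had 21.7, 43.4 and 67.4 CPM at PD16, against 105, 200 and 376 CPM at GD21, without overlap (-2.51 ± 0.15). Cd163, the macrophage receptor for haemoglobin and haptoglobin, had 4.08, 12.6 and 30.3 CPM at PD16, against 16.5, 51.9 and 87.0 CPM at GD21, with overlap (-2.08 ± 0.19). Lyz2 (lysozyme), C1qb and C1qc (complement), Tyrobp, Fcer1g, Aif1, Laptm5 and Ctss fell by 0.41 to 0.81.

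Csf1r, the receptor that macrophages depend on, had medians of 31.9 CPM at PD16 and 30.7 CPM at GD21 (-0.11, not called). Ptprc, the pan-leukocyte gene CD45, was too low to test, with a median of 4.57 CPM at PD16 and 12.1 CPM at GD21. The macrophage genes Cd68 and Adgre1 were also too low to test. Their medians were 4.27 and 2.22 CPM at PD16, against 4.03 and 3.03 CPM at GD21. The T-cell gene Cd3e and the B-cell gene Ms4a1 had medians of 0 CPM at both stages. The summed leukocyte list ran from 333 to 934 CPM at PD16 and from 664 to 1584 CPM at GD21. With library numbers under 57 alone 4 of 16 fell, and with 57 and above 10 of 16. In vehicle 12 of 15 leukocyte genes fell, where 21.2% of all genes did, and in methimazole 14, where 31.7% did. Both these treatments had a high embryonic globin share at PD16, whose part in the falls was not tested. Neutrophil granule genes had a median of -0.90, but only Camp (cathelicidin) of 9 was called lower, where 10.1% of all genes tested were. Camp stood at -0.96 ± 0.31 (adjusted p = 0.0251), a call lost without GD21 replicate 53 at 25 mg/kg per day (adjusted p = 0.0604) or replicate 89 at 50 mg/kg per day (0.0762). S100a8, a calcium-binding protein abundant in neutrophils, stood at -0.86 (adjusted p = 0.0947).

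Matrix genes gave rises. Of 25 testable genes of the extracellular matrix 7 rose and 0 fell, where 8.52% of all genes tested rose and 10.1% fell. The list's median was 0.34, and 22 members were positive. Col4a1, a chain of basement membrane collagen, had 65.2, 110 and 224 CPM at PD16, against 44.5, 57.1 and 91.4 CPM at GD21, and 17 of 23 PD16 libraries exceeded the highest GD21 library (0.71 ± 0.12, adjusted p = 1.26e-05). Lamc1 and Lama4 (laminin chains) rose by 0.62 and 0.61, and Col5a2, Fn1 (fibronectin), Col3a1 and Bgn (biglycan) by 0.77, 0.65, 0.50 and 0.34. Col1a1 and Col1a2, the chains of type I collagen, stood at -0.15 and -0.04, not called. At 25 mg/kg per day alone 9 of 24 rose and at 50 mg/kg per day 0 of 25, with a median of 0.15, while leaving out GD21 replicate 52, 53 or 82 at 25 mg/kg per day each left 4 rises, and leaving out the libraries with low Eif2s3y left 3, with a median of 0.38.

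Endothelial genes split. Kdr, a VEGF receptor, had 65.1, 96.9 and 142 CPM at PD16, against 230, 261 and 338 CPM at GD21, and Pecam1, an endothelial adhesion molecule, had 16.2, 36.5 and 83.4 CPM at PD16, against 93.3, 126 and 226 CPM at GD21. Both fell without overlap, with log2 fold changes of -1.65 and -2.02. Aplnr, the apelin receptor, rose by 0.74 ± 0.24 and Tek, the angiopoietin receptor, by 0.50 ± 0.18, and the other 9 of 13 were not called, Flt1, Tie1 and Cldn5 among them, so the list's median was -0.01. Neither rise passed the test at 1 dose alone, and that of Tek was lost in 14 of 35 fits that each left out 1 library (adjusted p up to 0.0838).

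Of 27 testable mitosis genes edgeR and DESeq2 each called 0, where edgeR called 10.1% of all genes tested lower and 8.52% higher. Their median was 0.14, and 1 had an unadjusted p under 0.05. Mki67, the proliferation marker, had 20.4, 34.9 and 54.2 CPM at PD16, against 20.0, 27.6 and 45.7 CPM at GD21. In the DNA replication list 2 of 26 fell and 1 rose, where 10.1% of all genes tested fell and 8.52% rose. Mcm4, a subunit of the replicative helicase, had 30.9, 47.2 and 77.0 CPM at PD16, against 141, 199 and 296 CPM at GD21 (-2.20 ± 0.10), while its partner Mcm2 rose by 0.47 ± 0.16 and Mcm3, Mcm5, Mcm6 and Mcm7 stood at 0.07, 0.06, 0.27 and 0.18, not called. Rrm2, a subunit of ribonucleotide reductase, fell by 1.92 and its partner Rrm1 stood at 0.15. The rise of Mcm2 was lost in 4 of 35 fits that each left out 1 library (adjusted p up to 0.078). In vehicle 27 of 31 replication genes and 24 of 30 mitosis genes rose, where 22.8% of all genes did. PD16 vehicle libraries had an embryonic globin share of 11.6 to 19.4%, and its part in these rises was not tested.

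Fetal growth genes moved in both directions, with 2 of 14 up and 3 down, where 8.52% of all genes tested rose and 10.1% fell. Igf2, the growth factor whose gene is shut down after birth in most rat tissues, had 49.1, 87.4 and 221 CPM at PD16, against 67.0, 121 and 223 CPM at GD21 (-0.62 ± 0.16, adjusted p = 0.00523). Its neighbour H19 had 43.7, 126 and 373 CPM at PD16, against 63.0, 103 and 260 CPM at GD21 (0.05 ± 0.24). Plagl1, a zinc finger protein of the imprinted gene network, fell by 1.98 without overlap and Igf2bp2, which binds Igf2 messenger RNA, by 0.63. Peg3 and Igf2r, the receptor that clears IGF2, rose by 0.54 and 0.53.

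Stress genes, 14 of the immediate early and heat shock kind, gave 3 falls and 1 rise. Over all genes tested 10.1% fell and 8.52% rose. Besides Jund, Hsph1, a chaperone of the HSP110 family, had 19.3, 36.3 and 80.4 CPM at PD16, against 67.8, 98.8 and 134 CPM at GD21 (-1.52 ± 0.13), and Jun fell by 0.53. Hspa5, the chaperone of the endoplasmic reticulum, rose by 0.31. Hsp90aa1, Hspa8 and Hspd1 stood at 0.03, 0.12 and -0.02, not called.

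**Figure D3:**
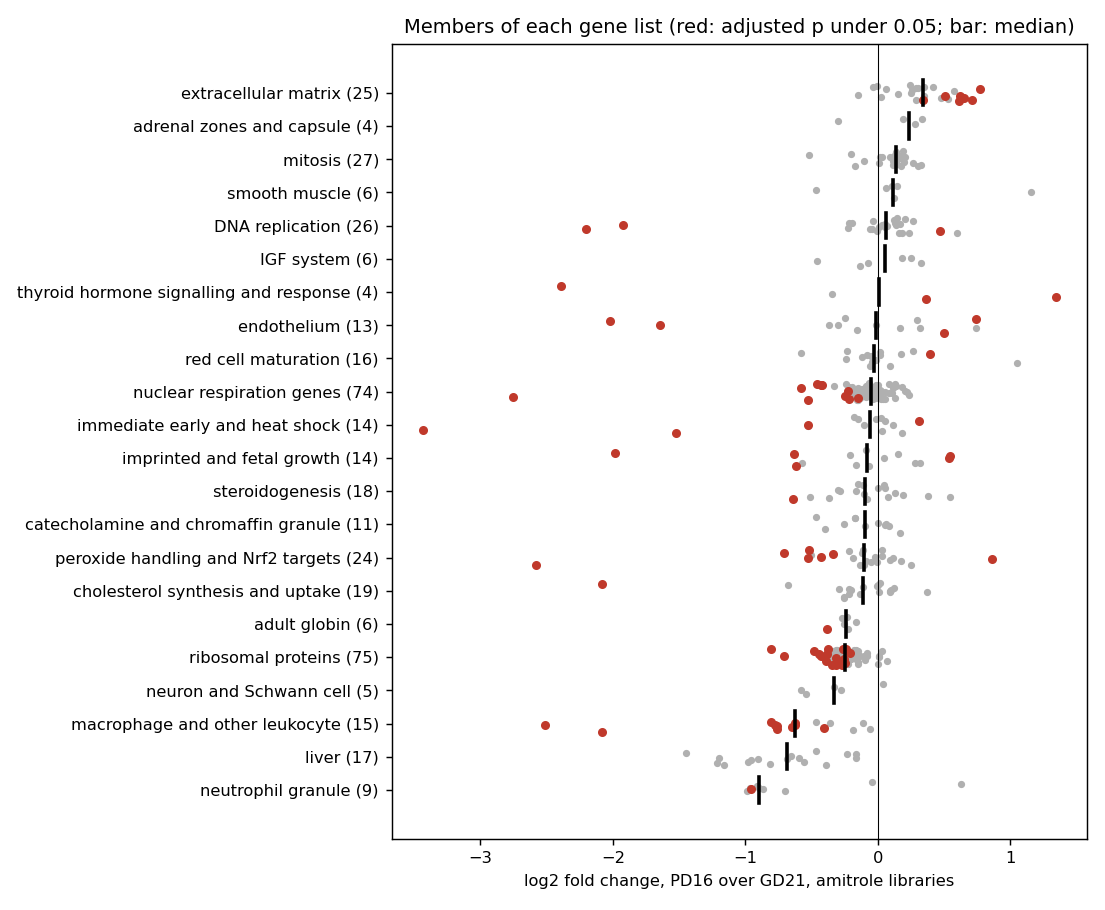
Log2 fold change, PD16 over GD21 under amitrole (horizontal axis), of each testable member of the lists with at least 4 such members (rows, with the number tested), red where the adjusted p was under 0.05 and with a bar at the median. Several lists have medians near 0 with 1 or 2 members at -1.5 or lower, leukocyte genes lie below 0 as a whole (median -0.63) and matrix genes mostly above it (median 0.34).

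Red cell genes gave 3 calls, each of which was lost in several of the fits that left out 1 library. Over all genes tested 10.1% were called lower and 8.52% higher. The 6 adult globin genes had a median of -0.24 and 1 was called, Hbb (-0.38 ± 0.13, adjusted p = 0.0367), a call lost in 15 of 35 fits that each left out 1 library (adjusted p up to 0.0804). Hbb-b1, another beta globin, stood at -0.27 and was not called. All globins together took 9.21 ± 1.82% of counts at PD16 (SD, n = 23) and 9.86 ± 2.30% at GD21 (n = 12, permutation p = 0.368, adjusted 0.589). Hbe1, an embryonic globin, had 27.5, 108 and 267 CPM at PD16, against 40.4, 136 and 860 CPM at GD21 (-1.02 ± 0.35, adjusted p = 0.039). That call was lost in 11 of 35 such fits (adjusted p up to 0.208), and within library numbers under 57 the change was 0.31. Of 16 red cell maturation genes 1 rose, Fech, which puts iron into haem (0.40 ± 0.13, lost in 4 of 35 fits).

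Liver genes had a median of -0.69 over 17 tested, of which edgeR called 0, DESeq2 1 lower, and 1 had an unadjusted p under 0.05. That median was 3.25 within library numbers under 57, -2.63 within 57 and above, -0.14 with library number as a covariate and -0.08 without the libraries with low Eif2s3y, so its sign turned with the libraries taken. Alb had 8.82, 20.6 and 2686 CPM at PD16, against 14.5, 37.7 and 4394 CPM at GD21 (-1.21 ± 0.95). The summed liver list ran from 245 to 14320 CPM at PD16 and from 262 to 20830 CPM at GD21, with the high values in the 7 libraries where Alb was over 200 CPM. Of 3 adipose genes Cfd (adipsin) fell by 0.68. In the nerve, adrenal zone, IGF, clock and smooth muscle lists (5, 4, 6, 3 and 6 tested) edgeR called 0 genes, DESeq2 called 1 of the zone list higher, and 1, 1, 0, 0 and 2 had an unadjusted p under 0.05. Over all genes tested edgeR called 10.1% lower and 8.52% higher. In the lymphocyte, kidney and X-inactivation lists 0 genes passed the filter, and Eif2s3y, the 1 Y-linked gene that did, was not called (-0.44).

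Ribosomal protein genes were slightly lower, with 19 of 75 down, 0 up and a median of -0.25. Over all genes tested 10.1% were down and 8.52% up. Rpl27 had 1463, 1796 and 2660 CPM at PD16, against 2547, 3063 and 3543 CPM at GD21 (-0.81 ± 0.09), and Rps25 fell by 0.71. The count hung on single libraries: it was 7 without GD21 replicate 55 or 56 at 50 mg/kg per day and 9 to 11 without GD21 replicate 81, 54 or 82 at 25. It was 51, 47 and 39 without PD16 replicates 38, 17 and 20 at 50 mg/kg per day, and 30 to 36 without GD21 replicates 87 and 88 and PD16 replicate 19 at 50 and PD16 replicate 15 at 25. Within library numbers under 57 it was 6 and within 57 and above 61, with library number as a covariate 44, without the 4-fold lower genes 36, without the libraries with low Eif2s3y 5 and without those with high Alb 7. As a share of counts these genes took 15.4 ± 2.14% at PD16 and 16.5 ± 2.15% at GD21 (permutation p = 0.191, adjusted 0.458).

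Of 74 nuclear genes of the respiratory chain 10 fell and 0 rose, where 10.1% of all genes tested fell and 8.52% rose. The list's median was -0.05. Ndufa10, of complex I, had 41.8, 68.6 and 108 CPM at PD16, against 253, 452 and 612 CPM at GD21 and no overlap (-2.75 ± 0.10), and Cox7b fell by 0.58, while the other 8 falls were of 0.15 to 0.53. Their summed share was 6.06 ± 0.352% at PD16 and 5.80 ± 0.151% at GD21 (permutation p = 0.0183, adjusted 0.171). With TMM factors in place of library totals the sign of that difference turned, with -0.29 in place of 0.27 percentage points.

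No gene was called for a dose dependence of the stage difference. For the difference between 50 and 25 mg/kg per day edgeR called 0 of 5408 genes in either direction (0%), DESeq2 called 0 and 181 had an unadjusted p under 0.05. Of the 887 genes called over both doses and testable at each, 297 were called in the same direction at both. Tob1 stood at -3.57 at 50 and -3.15 at 25 mg/kg per day, and Mrc1 at -2.72 and -2.28 in that order of dose.

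Against the vehicle libraries the stage difference under amitrole was higher for 1131 genes (18% of 6287) and lower for 1135 (18.1%), and against methimazole it was higher for 1265 (20.1%) and lower for 1188 (18.9%). Of 602 falls called under amitrole in this fit, 454 were also called lower in methimazole (75.4% of the amitrole falls and 22.8% of the 1994 methimazole falls). In vehicle 104 were (17.3% of the amitrole falls and 7.79% of the 1335 vehicle falls), and 212 were called higher there. Of 517 rises, 267 were shared with methimazole (51.6% and 14.7% of each list) and 168 with vehicle (32.5% and 11.7%). Beside these shares, the embryonic globin share of the PD16 vehicle and methimazole libraries given above differed from that of all other libraries, and its part in them was not tested.

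**Figure D4:**
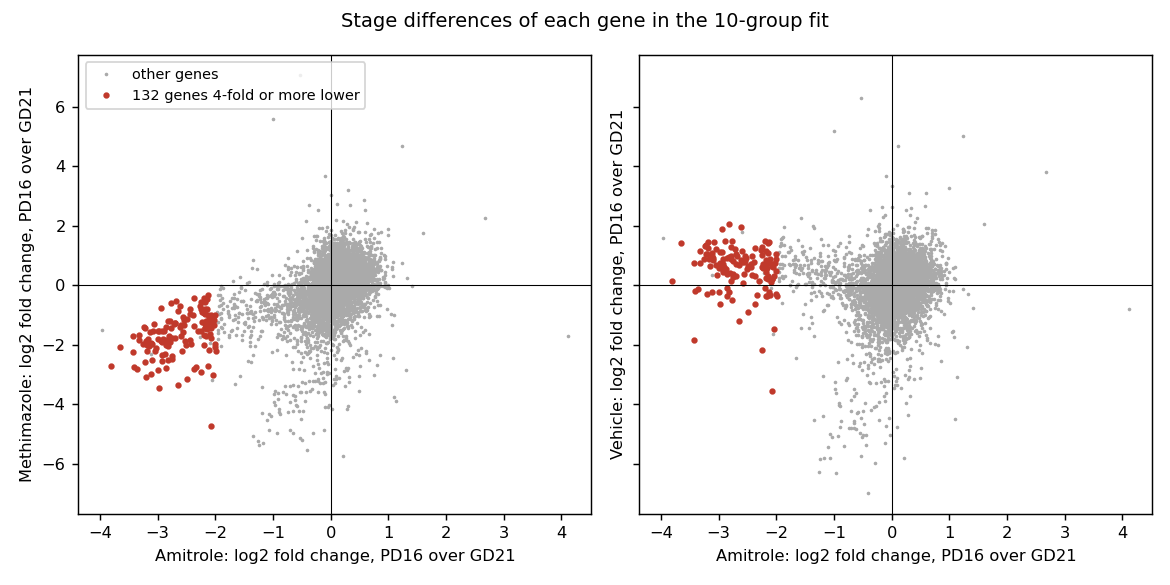
Log2 fold change, PD16 over GD21, of each of 6287 genes under amitrole (horizontal axes) against methimazole (left) and vehicle (right), with the 132 genes called 4-fold or more lower under amitrole in red. All 132 lie below 0 in methimazole, and 107 lie above 0 in vehicle.

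Sox9, Marcks and Vtcn1 were among the 5 largest negative contrasts with vehicle that the naming rule admitted. Sox9, a transcription factor of many developing tissues, had 1.36, 6.51 and 18.9 CPM at PD16 under amitrole, against 26.4, 38.8 and 82.0 CPM at GD21 (-2.80 ± 0.22). In vehicle it had 77.8, 129 and 227 CPM at PD16, against 21.5, 29.1 and 41.2 CPM at GD21, so the stage difference was lower under amitrole by 4.88 on the log2 scale (adjusted p = 3.45e-19). Marcks, a substrate of protein kinase C at the membrane, had 80.0, 153 and 413 CPM at PD16 under amitrole, against 554, 947 and 2115 CPM at GD21 (-2.96 ± 0.17), and rose by 1.88 in vehicle. The contrast for Marcks was -4.83 against vehicle and -2.18 against methimazole, and that for the immune checkpoint ligand Vtcn1 was -5.06 and -1.59. As before, PD16 vehicle and methimazole libraries differed from amitrole in embryonic globin share, and its part in these contrasts was not tested.

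Hbz and Hbe1, the embryonic globins, gave the largest negative contrasts among the genes the naming rule admitted, at -6.81 and -6.20 against vehicle and -7.58 and -6.60 against methimazole. Hbz had 0, 10.9 and 25.2 CPM at PD16 and 2.52, 11.4 and 51.1 CPM at GD21 under amitrole, against 464, 639 and 967 CPM at PD16 and 4.91, 7.15 and 12.7 CPM at GD21 in vehicle. Under amitrole the stage difference of Hbz did not pass the test (-0.54 ± 0.34, adjusted p = 0.271). The liver genes Fga, Fgb, Fgg and Fabp1 had contrasts of 5.20 to 6.57 against vehicle. Alb reached 200 CPM in 4 of 23 PD16 and 3 of 12 GD21 amitrole libraries, and in 0 of 10 PD16 and 3 of 6 GD21 vehicle libraries, and the part of such libraries in these contrasts was not tested.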

How the data were processed

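Expression was measured by BRB-seq, a pooled 3′ RNA-seq method. The authors deposited raw counts for 17483 gene symbols. Alignment used BWA 0.7.4.4 and the rn6 genome, per the submitters' processing notes. Not given in the sources used here: the counting tool, annotation, strand setting and barcode handling. Samples with an RNA integrity score above 6.8 were used, per the labels' protocols.

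The test was the quasi-likelihood F test of edgeR 4.0.16 under R 4.3.3, with limma 3.58.1 beneath it: filterByExpr by group with a minimum count of 10, TMM factors, robust fits, dose as a block, Benjamini-Hochberg adjustment over all genes tested, called under 0.05. A 4-group fit tested the dose interaction and a fit of all 83 libraries the contrasts with vehicle and methimazole. Errors of fold changes are SE. Summed shares were compared by two-sided permutation tests, exact within a dose and with 1e+05 resamples over both. DESeq2 1.42.0 and the other settings are alternatives. The procedure was tested on simulated data.

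Genes named are the 12 largest called rises and falls of at least 20 CPM with the same sign at both doses, up to 4 called members of each of 30 lists, a panel named whatever its result, and the largest contrasts with vehicle and methimazole. The rule skips bare identifiers. Leukocyte markers, further list members, genes at the 4-fold limit and LOC100911498 were added after their values were seen. The comparison, the lists and the members were chosen with earlier results of these data known. Of the 595 pairs of libraries none agreed within sampling noise (lowest chi-square per degree of freedom 1.67). No paired analysis entered, since replicate numbers are library numbers that no 2 groups share. Rat promoters are of another build than rn6 and were matched by symbol.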

Additional observations from a re-analysis of the deposited data

Results flagged for a closer look

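In 214 sets of 6 GD21 libraries, 1 gene or summed share at 1 dose each, 22 held a library far from the other 5. The cutoff on the gap is set for about 1 in 20 among independent normal values. Its chance rate for these counts, many of them low or from genes that move together, was not computed. Liver genes made up most of them. At 25 mg/kg per day GD21 replicate 81 had 1840 CPM of Alb, 96.8 of Fga, 232 of Fgb, 204 of Fgg and 23.2 of Fabp1, and its summed liver share was 0.702%, against at most 0.0505% in the other 5. At 50 mg/kg per day GD21 replicate 89 had 4390 CPM of Alb, 195 of Fga, 677 of Fgb, 471 of Fgg and 83.3 of Fabp1, and a liver share of 2.08%, against at most 0.409%. GD21 replicate 88 at 50 mg/kg per day had 860 CPM of Hbe1, against at most 256, with 0.878% of its globin counts embryonic. The same library had 17.0 CPM of Aplnr, and GD21 replicate 53 at 25 mg/kg per day had 17.2 CPM. GD21 replicate 51 at 25 mg/kg per day stood apart in Gclc (30.3 CPM), Marcks (1630 CPM) and Hbb (6020 CPM, against at least 11700 in the other 5), and GD21 replicate 89 at 50 mg/kg per day in Tek (6.66 CPM). Thrb (0.968 CPM in replicate 81) and LOC100911498 (1.21 CPM in replicate 54), both at 25 mg/kg per day, rest on 1 count each.

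Stage differences that differed from those of other treatments in the 10-group edgeR test, as log2 differences of amitrole minus vehicle, were 6.57 for Fga, 6.01 for Fabp1, 5.68 for Fgb, 5.34 for Lyc2, 5.20 for Fgg, -6.81 for Hbz, -6.20 for Hbe1, -5.06 for Vtcn1, -4.88 for Sox9 and -4.83 for Marcks. Minus methimazole they were 5.95 for Fabp1, 5.14 for Fga, 5.04 for Ckm, -7.58 for Hbz, -6.60 for Hbe1 and -3.78 for Crabp1. PD16 vehicle and methimazole libraries differed from amitrole in embryonic globin share, as given above, and its part here was not tested.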

How the results depend on the processing

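The alternatives with libraries left out by Eif2s3y or Alb, the 2 parts of the library numbers fitted alone and the refit without the 4-fold lower genes were chosen after the data had been seen. The count of 461 higher genes was 266 with no filter on low counts (14163 genes tested), 273 with 25 and 35 with 50 mg/kg per day alone, 270 in thinned counts, 203 without the libraries with low Eif2s3y, 285 without those with high Alb and 140 in library numbers under 57. The count of 544 lower genes was 323 with 50 mg/kg per day alone and 348 in thinned counts. Fewer samples, or fewer counts, enter most of these. Leaving out each library in turn gave 370 to 618 higher and 492 to 629 lower. Rises made up 45.9% of all calls, against 28.4% with no filter, 9.78% with 50 mg/kg per day alone, 31.7% without the libraries with low Eif2s3y, 34.2% in library numbers 57 and above and 24.1% under 57. DESeq2 called 504 higher and 558 lower and shared 452 and 541 of the calls. Of 71 named genes called, Hbe1 alone turned its sign, to 0.31 in library numbers under 57, and the cause was not tested. Fits without 1 library lost 69 of 2485 calls of named genes. No paired analysis was possible because no 2 groups share a replicate number.

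Depth limits the low genes: the lowest PD16 total was 263933, where a single count is worth several CPM. The 17 list members of thyroid hormone signalling below the filter say nothing about that pathway. PD16 libraries were shallower than GD21 libraries. Library preparation batches are not given, and whether the library numbers follow them is not stated. Counts by symbol can split or merge near-identical globin, ribosomal protein and immune gene copies.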
